A study of Mus musculus with 4 samples.

Results

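Neuronal RNA-binding and splicing regulators are described here in day 12 cultures of JB1 cells. They are 10 named genes out of 55602 in the bulk count table. *Elavl2*, *Elavl3* and *Elavl4* encode the neuronal ELAV-like proteins that stabilize mRNAs, *Nova1* and *Nova2* encode the Nova splicing factors, and *Rbfox1* and *Rbfox2* encode Rbfox splicing factors. *Ptbp1* and *Ptbp2* encode the polypyrimidine tract-binding proteins, and *Srrm4* encodes the activator of neuronal microexons. The genes were taken by name, by matching gene identifiers to symbols, and the list was drawn up with earlier results of these data known. JB1 is a hybrid line of embryonic stem cells (ESCs), made from a JF1 mother and a C57BL/6 (B6) father. Wild-type JB1 cells and JB1 cells with an inactivated *Zfp57* gene (*Zfp57*-/-, called mutant below) were each represented by 2 libraries. All cultures went through the same corticogenesis protocol in a chemically defined medium, with 1 µM cyclopamine, an inhibitor of Hedgehog signaling, from day 2 to day 10, and were harvested at day 12. ZFP57 is a zinc-finger protein that protects DNA methylation at imprinted loci, and the comparison asks how its loss changes the neural precursor cells (NPCs) obtained. The labels number the libraries of each genotype as replicates, and the study calls them biological duplicates. The *Zfp57*-/- libraries come from 1 mutant line, which the study's wording treats as a clone, so the genotype and the line cannot be told apart.

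Of the members, PTBP1 and PTBP2 are known to act in sequence as a neural progenitor becomes a neuron. PTBP1, abundant in stem cells and progenitors, represses neuronal exons, among them an exon of *Ptbp2* whose skipping leads to decay of the *Ptbp2* mRNA. When PTBP1 falls, with the neuronal microRNA miR-124 as a known repressor, PTBP2 takes its place. SRRM4, the Nova and Rbfox proteins and the neuronal ELAV-like proteins also set splicing and mRNA stability in the neuron. The transcription factor REST represses neuronal genes in non-neuronal cells, and SRRM4 is known to act on REST by changing its splicing.

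The exon on which the switch between *Ptbp1* and *Ptbp2* turns is shown because the gene counts cannot see it. In the GENCODE vM21 annotation (GRCm38), exon 10 of the 14-exon coding transcript of *Ptbp2* has 34 bases, which is not a multiple of 3. It was picked as an exon missing from every transcript that holds both neighbouring exons and is annotated as subject to nonsense-mediated decay. Its absence from 2 of 2 such transcripts therefore follows from the choice. It is present in 3 of 5 coding transcripts. Capitals mark the exon, and the lower-case letters are the 12 neighbouring bases of the spliced transcript on each side.
Ptbp2, chr3:119724612-119724645, minus strand: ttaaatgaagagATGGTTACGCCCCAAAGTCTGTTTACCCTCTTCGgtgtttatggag

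The promoter windows (RefSeq, GRCm38.p6, 250 bases before to 50 after the annotated start) of 5 members are shown, since most members fell together and their promoters could be searched for shared letters. In total, 9 of 10 members, all but *Rbfox2*, had a window in this table, and these 9 genes had 18 windows. Capitals mark TGCCGC and GGCCGC, the 2 forms of the hexamer that ZFP57 recognizes when methylated, and the E-boxes CAGCTG and CAGATG, of the kind bound by proneural basic helix-loop-helix factors. All were searched on both strands. CAGCTG reads the same on both strands, and its last 2 letters can be the first 2 of TGCCGC.
Elavl3, chr9:22051974-22052273, minus strand: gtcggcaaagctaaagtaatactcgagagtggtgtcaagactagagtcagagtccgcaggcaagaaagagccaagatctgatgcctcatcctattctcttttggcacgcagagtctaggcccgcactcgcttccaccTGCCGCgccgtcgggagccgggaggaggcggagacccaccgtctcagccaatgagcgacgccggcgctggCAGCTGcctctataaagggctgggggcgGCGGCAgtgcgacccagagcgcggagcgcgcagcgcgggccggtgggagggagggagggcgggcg
Nova1, chr12:46818718-46819017, minus strand: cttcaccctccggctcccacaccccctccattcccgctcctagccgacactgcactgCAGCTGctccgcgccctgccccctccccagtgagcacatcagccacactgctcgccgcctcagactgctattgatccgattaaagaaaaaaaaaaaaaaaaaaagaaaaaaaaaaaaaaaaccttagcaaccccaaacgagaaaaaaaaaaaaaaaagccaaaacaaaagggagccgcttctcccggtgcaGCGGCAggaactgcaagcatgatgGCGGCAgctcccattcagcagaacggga
Elavl4, chr4:110287478-110287777, minus strand: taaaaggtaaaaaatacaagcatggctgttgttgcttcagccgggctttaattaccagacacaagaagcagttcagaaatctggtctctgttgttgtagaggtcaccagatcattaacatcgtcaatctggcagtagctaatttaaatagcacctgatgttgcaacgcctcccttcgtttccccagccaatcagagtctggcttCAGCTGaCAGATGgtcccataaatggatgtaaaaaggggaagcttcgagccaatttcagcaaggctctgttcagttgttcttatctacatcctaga
Srrm4, chr5:116591768-116592067, minus strand: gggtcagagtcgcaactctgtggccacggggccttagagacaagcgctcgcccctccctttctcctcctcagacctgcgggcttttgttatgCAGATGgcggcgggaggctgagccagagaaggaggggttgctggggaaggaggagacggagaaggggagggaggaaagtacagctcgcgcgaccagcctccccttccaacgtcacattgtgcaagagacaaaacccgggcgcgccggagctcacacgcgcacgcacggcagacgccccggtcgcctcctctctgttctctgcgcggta
Ptbp1, chr10:79854182-79854481, plus strand: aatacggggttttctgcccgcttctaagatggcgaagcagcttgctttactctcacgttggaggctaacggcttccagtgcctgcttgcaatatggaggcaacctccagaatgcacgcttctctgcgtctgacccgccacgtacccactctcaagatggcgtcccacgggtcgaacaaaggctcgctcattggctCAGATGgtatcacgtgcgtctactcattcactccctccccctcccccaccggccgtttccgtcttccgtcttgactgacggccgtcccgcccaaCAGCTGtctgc

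The hexamer TGCCGC was present in 3 of the 18 member windows, at *Elavl3*, *Nova1* and *Rbfox1*, and in 11.6% of all 32851 windows. *Elavl3* and *Nova1* each had 2 copies. Its other form, GGCCGC, was in none of the windows printed but in 7 of the 18, belonging to *Elavl2* and *Nova2*, and in 6568 of the 32851. CAGCTG was found in 9 of the 18 windows, belonging to 6 genes, and in 16.3% of all windows, and CAGATG in 5 of the 18, belonging to 3 genes, and in 17.2% of all. In *Elavl4* both E-boxes lay 1 base apart. The windows of 1 gene overlap in part and are not independent. The windows printed all hold a match. *Ptbp1*, which did not fall, also held both E-boxes. The window of *Ptbp2*, which fell, held none of the motifs, and that of *Nova2*, which also fell, held no E-box. A match describes the letters of the window only, and methylation and binding were not analysed here.

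Bulk counts, the fragments assigned to genes, summed to between 7663520 and 10337082 per library. *Zfp57* itself had 392 and 249 counts in wild-type libraries and 158 and 144 in mutant ones (log2 fold change -1.19, edgeR adjusted p = 0.0225), and this count takes in what is transcribed outside the deleted part. Without wild-type replicate 1 the value was -0.61, and without *Zfp57*-/- replicate 2 it did not pass (adjusted p = 0.0719). Of 12 neuron markers, 11 were lower in the *Zfp57*-/- cells (edgeR adjusted p under 0.05), as were 6 of 8 progenitor markers, while 8 of 8 pluripotency markers were higher. By the same threshold 14.6% of all genes tested were lower and 13% higher. Summed normalized counts of the neuron markers were 18844 and 23547 in wild-type and 3093 and 2639 in mutant libraries. Those of the pluripotency markers were 39.6 and 75.5 against 12221 and 10666, with *Nanog* at 0 counts in both wild-type libraries. The *Zfp57*-/- libraries therefore go against part of what the label neural progenitor implies. In bulk RNA, fewer neurons and less of each mRNA per neuron cannot be told apart, and this touches every result below. For genes that rose, more cells of another kind and more mRNA per cell cannot be told apart either. Between replicates the median standard deviation of log2 levels was 0.24 for wild-type and 0.10 for mutant libraries.

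In the *Zfp57*-/- cells, 8 of the 10 regulators were lower, and all 8 were at 0.37 or less of their wild-type level. The largest decrease was in *Srrm4*, by 30.2-fold, and *Elavl3*, *Elavl4*, *Rbfox1*, *Nova2* and *Nova1* were lower by between 9.81-fold and 18.4-fold. *Ptbp2* was lower by 3.35-fold and *Elavl2* by 2.71-fold. *Rbfox2* and *Ptbp1* did not pass the threshold, which was a Benjamini-Hochberg adjusted p of 0.05 over all genes in the quasi-likelihood test of edgeR. Of the 19995 genes tested, 27.6% passed it in either direction. All 10 passed the filter on low counts. Over all genes tested, 14.6% were lower and 13% were higher in the *Zfp57*-/- cells. In edgeR, 0 of 10 members were higher, 1 was at an unadjusted p under 0.05, and DESeq2 called 1 (*Ptbp1* in both). The median log2 fold change was -3.32 over the members and -0.01 over all genes tested. In 9 members both *Zfp57*-/- libraries lay below both wild-type libraries and in 1 above, while 32.6% and 33.7% of all tested genes separated in the same way.

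**Figure D1:**
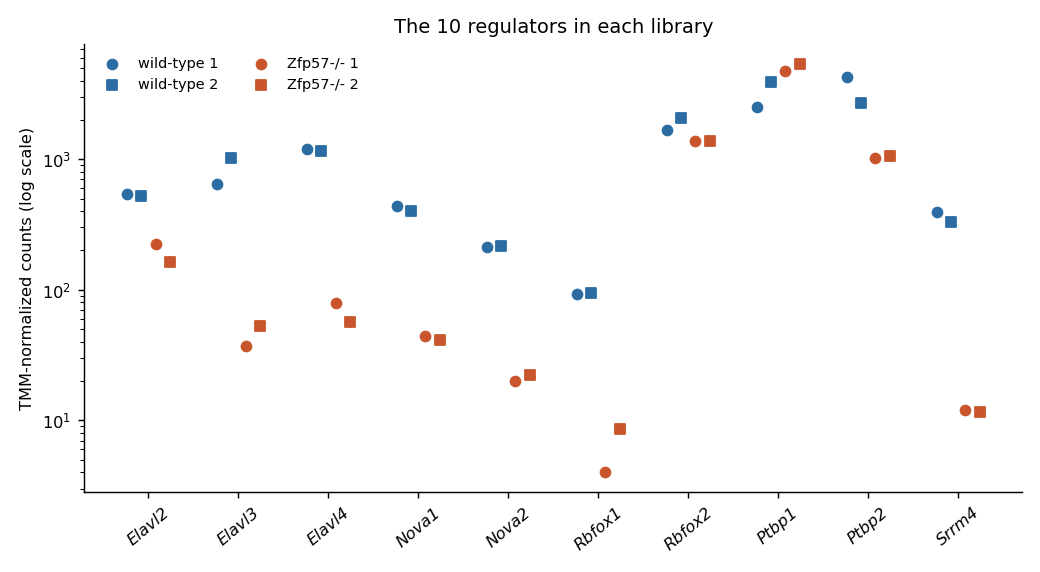
TMM-normalized counts of the 10 regulators on a log axis, 1 point for each library (blue wild-type, orange *Zfp57*-/-, circles replicate 1, squares replicate 2). The orange points lie below the blue ones for 9 genes, from 12.1 and 11.5 against 392 and 332 for *Srrm4* to a small gap for *Rbfox2*, and above them for *Ptbp1*.

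The neuronal ELAV-like genes are among the first to mark newborn neurons, and their proteins bind AU-rich stretches of mRNAs. *Elavl3* (chromosome 9, 22015005 to 22052023) had 554 and 1132 counts in wild-type libraries but 37 and 55 in mutant ones. Its log2 fold change was -4.20 (standard error 0.31, edgeR adjusted p = 1.38e-05). *Elavl4* (chromosome 4, 110203722 to 110351909), whose protein is also called HuD, went from 1027 and 1297 counts to 78 and 59. The log2 fold change was -4.12 (standard error 0.24, adjusted p = 4.36e-06). *Elavl2* (chromosome 4, 91250763 to 91400785), which is also expressed outside the nervous system in germ cells, had 463 and 577 counts against 223 and 171, a smaller decrease (log2 fold change -1.44, standard error 0.22, adjusted p = 0.00122). In all 3 genes both mutant libraries lay below both wild-type ones, as they did in 32.6% of all genes tested. *Elavl3* differed 1.58-fold between the wild-type replicates, less than between the genotypes.

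The make-up of the family also differed between the genotypes. On the RPKM scale (fragments per kilobase of exon, scaled to the TMM library size), the sum of the 3 genes was 40.5 and 45.3 in wild-type cells, against 5.01 and 4.04 in mutant cells. *Elavl4* made up 58.3% and 50.7% of it in wild-type cells, and *Elavl2* 17.0% and 14.6%. In *Zfp57*-/- cells *Elavl2* was the largest part, with 57.5% and 52.1%, ahead of *Elavl4* with 31.0% and 27.7%. *Elavl1*, the broadly expressed relative, was at 15.6 and 18.4 RPKM in wild-type and 13.7 and 13.3 RPKM in mutant libraries, and its log2 fold change of -0.33 did not pass the threshold (edgeR adjusted p = 0.227). Its part in the sum of the 4 genes was 27.8% and 28.9% in wild-type cells and 73.2% and 76.7% in *Zfp57*-/- cells. The shares are a description, and no test was run on them. Among mRNAs listed as known ELAV-like targets, *Gap43*, a growth cone protein and itself among the neuron markers, fell (log2 fold change -2.70, adjusted p = 0.000171). *Cdkn1a*, which encodes a cell cycle inhibitor, was at 0.61 on the same log2 scale (adjusted p = 0.051).

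Nova proteins bind YCAY clusters in neuronal pre-mRNAs. *Nova1* (chromosome 12, 46694517 to 46818929) had 378 and 449 counts in wild-type libraries but 44 and 43 in mutant ones. This was a 9.81-fold decrease (log2 fold change -3.29, standard error 0.24, edgeR adjusted p = 1.48e-05). *Nova2* (chromosome 7, 18925888 to 18965319), the form that is prominent in the developing cortex, had 184 and 240 counts against 20 and 23 (log2 fold change -3.34, standard error 0.30, adjusted p = 4.5e-05). Replicates of either genotype differed by at most 1.10-fold after normalization. The 2 genes had similar fold changes, and *Nova1* made up between 64.2% and 67.8% of the RPKM sum of the pair in each of the 4 libraries. Among 3 known splicing targets of the Nova proteins, the counts of *Gphn*, which encodes the inhibitory synapse scaffold gephyrin, and of *Dab1*, an adaptor of reelin signaling, were lower (log2 fold change -1.79 and -0.76, adjusted p = 0.000437 and 0.0301). Without either *Zfp57*-/- replicate *Dab1* did not pass (adjusted p = 0.345 and 0.169). That of *Agrn* was -0.47 (adjusted p = 0.173). These are gene counts and do not measure exon inclusion.

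The Rbfox genes split. *Rbfox1* (chromosome 16, 5885355 to 7411526), which is largely restricted to neurons, heart and muscle, had 80 and 105 counts in wild-type libraries but 4 and 9 in mutant ones. The log2 fold change was -3.85 (standard error 0.50, edgeR adjusted p = 0.000425), with the largest standard error of the 10 members. *Rbfox2* (chromosome 15, 77078990 to 77307004), which is also active in stem cells and many tissues, had 1437 and 2312 counts against 1356 and 1432. After normalization these were 1675 and 2077 against 1370 and 1378, so the groups did not overlap, but the log2 fold change of -0.45 (standard error 0.19) did not pass the threshold (adjusted p = 0.114). It passed when wild-type replicate 1 was left out (log2 fold change -0.62, adjusted p = 8.61e-06). *Rbfox3*, the NeuN antigen of mature neurons, dropped from 63 and 68 counts to 3 and 4 (log2 fold change -4.24, adjusted p = 0.000501). *Rbfox2* was the main family member in all libraries, with 85.9% and 88.9% of the RPKM sum of the 3 genes in wild-type cells, and 99.2% and 98.5% in mutant cells.

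Of the Ptbp pair, *Ptbp2* fell, and *Ptbp1* was higher in both mutant libraries without passing the threshold. *Ptbp2* (chromosome 3, 119718742 to 119784466) had 3669 and 2975 counts in wild-type libraries but 1008 and 1094 in mutant ones (log2 fold change -1.75, standard error 0.24, edgeR adjusted p = 0.000672). *Ptbp1* (chromosome 10, 79854427 to 79864771) had 2160 and 4355 counts against 4726 and 5532. Both *Zfp57*-/- libraries lay above both wild-type libraries, but the log2 fold change of 0.65 (standard error 0.23) missed the threshold (adjusted p = 0.0647). The wild-type replicates differed 1.55-fold in *Ptbp1* and 1.6-fold, the other way, in *Ptbp2*. *Ptbp1* passed in DESeq2 (adjusted p = 0.043), with upper-quartile scaling (0.0416) and without a filter on low counts (0.0207). Its log2 fold change was 0.34 without wild-type replicate 1 and 1.00 without wild-type replicate 2 (adjusted p = 0.027 and 2.11e-12). It did not pass without *Zfp57*-/- replicate 1 or 2 (adjusted p = 0.214 and 0.357), nor with *Actb* as the scale, where it was 0.07 (adjusted p = 0.948).

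Per length, *Ptbp1* stood at 56.4 and 87.7 RPKM in wild-type and at 107 and 119 RPKM in mutant cells, while *Ptbp2* was at 49.5 and 31.0 RPKM against 11.8 and 12.2 RPKM. The ratio of *Ptbp2* to *Ptbp1* was 0.878 and 0.353 in wild-type libraries and 0.110 and 0.102 in mutant ones. Per length, *Ptbp1* thus exceeded *Ptbp2* in each library, and by 9.08-fold and 9.79-fold in the *Zfp57*-/- cells. In wild-type replicate 1 that order rests on the gene lengths used, 4740 bases for *Ptbp1* and 9175 for *Ptbp2*. Without division by length, *Ptbp2* was ahead there, with 3669 counts against 2160, and *Ptbp1* was ahead in the other libraries. The mean log2 ratio was -0.85 ± 0.93 (SD, n = 2) for the wild-type libraries and -3.24 ± 0.08 (SD, n = 2) for the mutant ones, a difference of -2.39 or 5.25-fold. An exact two-sided permutation test gave p = 0.333, the smallest that 2 libraries against 2 allow. *Ptbp3*, the third paralog, had a log2 fold change of 0.20 (edgeR adjusted p = 0.513) and made up between 19.4% and 21.4% of the RPKM sum of the 3 genes in each library. That sum was 132 and 151 RPKM in wild-type and 149 and 167 RPKM in mutant cells. Of the PTBP cofactors, *Raver2* was lower (log2 fold change -1.02, adjusted p = 0.00566), but not past the threshold without either *Zfp57*-/- replicate (adjusted p = 0.0651 and 0.122).

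**Figure D2:**
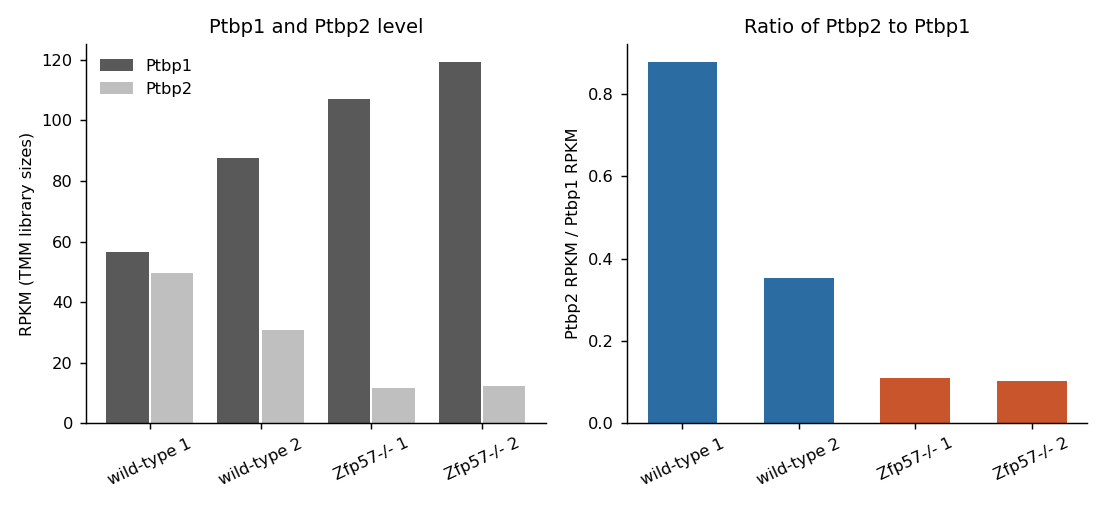
Left, RPKM of *Ptbp1* (dark) and *Ptbp2* (light) in each library, and right, their ratio (blue wild-type, orange *Zfp57*-/-). *Ptbp2* stood at 49.5 and 31.0 RPKM in the wild-type libraries and at 11.8 and 12.2 in the *Zfp57*-/- libraries, and the ratio fell from 0.878 and 0.353 to 0.110 and 0.102.

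Targets of PTBP repression include *Dlg4*, which encodes the postsynaptic protein PSD-95 and has a neuronal exon that is skipped while PTBP is abundant. *Dlg4* fell from 502 and 535 counts to 139 and 165 (log2 fold change -1.83, edgeR adjusted p = 0.000245). *Flna*, which encodes filamin A and has a poison exon under PTBP control, rose from 7427 and 9825 to 14264 and 15079 counts (log2 fold change 0.73, adjusted p = 0.0177). It did not pass without *Zfp57*-/- replicate 1 or 2 (adjusted p = 0.237 and 0.231), nor with *Actb* as the scale (log2 fold change 0.04, adjusted p = 0.968). Exon usage was not measured by these counts, including that of the *Ptbp2* exon printed above. With *Actb* as the scale, the median log2 fold change of all genes moved from -0.01 to -0.68. Relative to these medians, *Ptbp1* lay at 0.66 by TMM and 0.75 by *Actb*, *Ptbp2* at -1.74 and -1.86, *Rbfox2* at -0.44 and -0.41, and *Flna* at 0.74 and 0.72.

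*Srrm4* (chromosome 5, 116439275 to 116591817), also known as nSR100, had 336 and 369 counts in wild-type libraries but 12 and 12 in mutant ones. Its log2 fold change, -4.92 (standard error 0.30, edgeR adjusted p = 5.36e-06), was the largest decrease of the members. *Srrm3*, its relative with a similar role in neurons and endocrine cells, had 119 and 133 counts against 12 and 10 (log2 fold change -3.56, adjusted p = 0.000163). *Rest* moved the other way, from 1141 and 1613 to 3133 and 3342 counts (log2 fold change 1.20, standard error 0.19, adjusted p = 0.00123). Its groups did not overlap, but with *Actb* as the scale it no longer passed (adjusted p = 0.532, 1.21 relative to the median of all genes on both scales). *Rcor2*, a corepressor that works with REST, was lower (log2 fold change -0.60, adjusted p = 0.0355). It did not pass with *Actb* as the scale (adjusted p = 0.0705) or without *Zfp57*-/- replicate 1 or 2 (0.311 and 0.421). *Rcor1*, *Ctdsp1*, *Ctdsp2*, *Ctdspl* and *Phf21a*, which encode other partners of REST, did not pass the threshold.

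The hosts of neuronal microRNAs fell with the members. *Mir124-2hg* went from 1210 and 932 counts to 32 and 25 (log2 fold change -5.31, edgeR adjusted p = 5.97e-06), and *Mir124a-1hg* from 306 and 151 to 87 and 59 (log2 fold change -1.76, adjusted p = 0.0144). The wild-type replicates of *Mir124a-1hg* differed 2.63-fold, and its log2 fold change was -0.94 without wild-type replicate 1 and -2.31 without replicate 2. *Mir9-3hg* fell from 65 and 98 counts to 2 and 8 (log2 fold change -4.03, adjusted p = 0.000872). For all 3, both mutant libraries lay below both wild-type ones, which also held for 32.6% of all genes tested. Host transcripts need not follow the mature microRNAs, which were not measured. Of the 17 genes listed around the switch and reported here, 8 were lower and 2 higher (*Rest* and *Flna*), where 14.6% and 13% of all genes tested were. Some genes first listed are left out, so this count describes the genes shown and not the whole list.

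Ordered by RPKM, the wild-type cells had *Ptbp1* first, followed by *Ptbp2*, *Rbfox2*, *Elavl4*, *Elavl3*, *Elavl2*, *Nova1*, *Srrm4*, *Nova2* and *Rbfox1*. The means ran from 72.1 ± 22.1 RPKM (SD, n = 2) for *Ptbp1* to 2.26 ± 0.02 RPKM for *Rbfox1*. Only *Rbfox2* and *Elavl4* overlapped as neighbours in that order. In the *Zfp57*-/- cells the order was *Ptbp1*, *Rbfox2*, *Ptbp2*, *Elavl2*, *Elavl4*, *Elavl3*, *Nova1*, *Nova2*, *Rbfox1* and *Srrm4*. Here *Ptbp1* was at 113 ± 8.68 RPKM (SD, n = 2) and *Srrm4* at 0.145 ± 0.005 RPKM, and *Rbfox1* and *Srrm4* were the only neighbours that overlapped. *Srrm4* moved from the eighth place to the last. The gene length used is that of all annotated exons joined, so levels of genes with many rare exons are understated.

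Beyond the members, 27 related RNA-binding proteins were listed, and 26 of them were tested, as *Raver1* had no counts. In this list 12 genes were lower and 3 higher, with a median log2 fold change of -0.45. Of all genes tested 14.6% were lower and 13% higher, so the count of higher genes is near that of the genome as a whole. *Celf3*, a neuronal CELF factor, had the largest fitted decrease, from 245 and 420 counts to 8 and 9 (log2 fold change -5.29, edgeR adjusted p = 6.41e-06). *Celf6* (-4.75), *Khdrbs2* (-4.25), *Rbfox3* (-4.24) and *Srrm3* (-3.56) followed, and of the other CELF genes *Celf2*, *Celf4* and *Celf5* were lower, with log2 fold changes between -2.63 and -1.26. *Celf6* rested on 4 and 1 counts in the mutant libraries, and without *Zfp57*-/- replicate 1 it was at -6.00, beyond *Celf3* at -5.23. *Celf1*, the broadly expressed member, was at 0.05 (adjusted p = 0.869). *Msi1* and *Msi2*, the Musashi proteins of neural stem cells, also fell, with log2 fold changes of -2.92 and -1.20 (adjusted p = 1.35e-05 and 0.00145), as did *Khdrbs3* (-1.15) and *Raver2*, given above. *Celf5* did not pass without *Zfp57*-/- replicate 1 or 2 (adjusted p = 0.0683 and 0.223), nor *Khdrbs3* without replicate 2 (0.0714).

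The 3 genes that rose were *Esrp1*, *Esrp2* and *Mbnl2*. The ESRP proteins are epithelial splicing regulators. *Esrp1* rose from 126 and 265 counts to 611 and 670 (log2 fold change 1.71, edgeR adjusted p = 0.000882), and *Esrp2* from 48 and 115 to 191 and 189 (log2 fold change 1.22, adjusted p = 0.0187). *Mbnl2*, a Muscleblind factor, was at 0.56 (adjusted p = 0.0454) and turned to -0.14 with *Actb* as the scale, which is 0.54 above the median of all genes there. On that scale 0 of the 3 passed the threshold. Leaving out either *Zfp57*-/- replicate left 1 gene of the list higher, and leaving out wild-type replicate 2 gave 5.

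**Figure D3:**
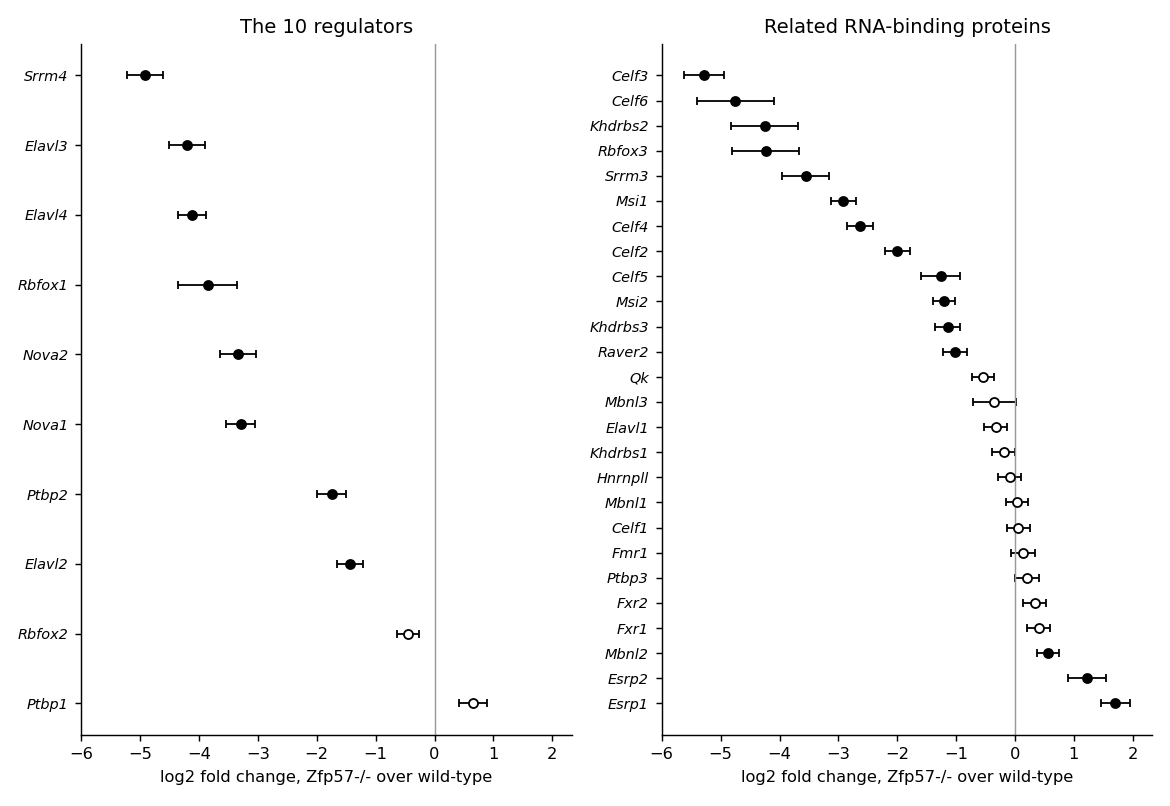
Log2 fold change of *Zfp57*-/- over wild-type cells (x axis) with its standard error (bars) for the 10 regulators (left) and the 26 related RNA-binding proteins tested (right), filled where the adjusted p was below 0.05. The regulators run from -4.92 for *Srrm4* to 0.65 for *Ptbp1*, and the related genes from -5.29 for *Celf3* to 1.71 for *Esrp1*, with *Mbnl2* at 0.56 turning to -0.14 under *Actb* scaling.

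Fold changes were smaller among general splicing factors. Of 36 SR proteins, hnRNPs and core spliceosome components, 1 was lower, *Hnrnpr* (log2 fold change -0.79, edgeR adjusted p = 0.0123), and 2 were higher, *Snrpe* (0.84, adjusted p = 0.0205) and *Hnrnpf* (0.77, adjusted p = 0.0388). Over all genes tested, 14.6% were lower and 13% higher. The median log2 fold change of the 36 was 0.11, and the single values ran from -0.79 to 0.84, a narrower span than that of the members. Both counts changed when a library was left out, and so did those of all genes, as given below. *Hnrnpf* was at 0.44 without wild-type replicate 1. With *Actb* as the scale 0 were higher.

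Most markers of neurons and progenitors were lower, as most members were. The median log2 fold change of the neuron markers was -2.99, next to -3.32 for the members, and that of the progenitor markers was -2.15. The markers listed first, *Tubb3*, *Map2* and *Dcx*, had log2 fold changes of -2.95, -4.23 and -6.42 (edgeR adjusted p = 0.000162, 4.04e-06 and 1.71e-06). *Stmn2* was the neuron marker that did not pass the threshold. Among the progenitor markers, *Vim* (-0.25, edgeR adjusted p = 0.382) and *Sox2* (0.49, adjusted p = 0.0881) did not pass. *Sox2* went the other way, higher in both mutant libraries than in both wild-type ones. Of the other lists, 1 of 6 endoderm markers was lower, 4 of 7 mesoderm and endothelial markers were higher and 1 lower, and 2 of 5 glia markers were higher and 2 lower, beside 13% higher and 14.6% lower of all genes tested. The 1 lower marker in each of the endoderm and mesoderm lists is near that share. Their part in the decrease of the members was not tested.

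**Figure D4:**
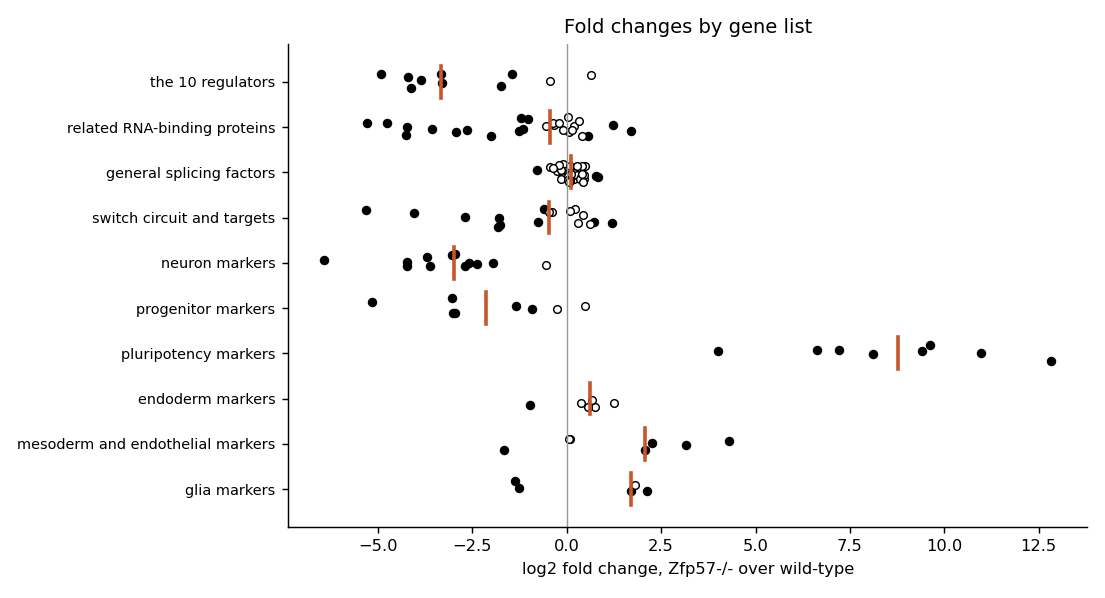
Log2 fold change of *Zfp57*-/- over wild-type cells (x axis) for each gene of each list (points, filled where the adjusted p was below 0.05) with the list's median (orange bars). The 10 regulators have a median of -3.32, beside -2.99 for neuron markers, 0.11 for general splicing factors and 8.76 for pluripotency markers.

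Because JB1 is a hybrid, reads that cover strain differences also tell the maternal JF1 from the paternal B6 allele. The members are not known as imprinted genes, and the question was whether either allele carried the decrease. Of the 10 members 9 had allelic reads and were tested, while *Rbfox1* had 0 allelic reads in all 4 libraries. The share of JF1 reads in wild-type cells lay between 0.47 and 0.56 for all 9 as the mean of the replicates. For the genotype-by-allele contrast, which asks whether that share differs between genotypes, 14.5% of 10977 autosomal genes passed in edgeR. Of the members 0 of 9 did, with 1 at an unadjusted p under 0.05 and 0 in DESeq2. Genes entered this test by their reads in the wild-type libraries only. *Srrm4*, *Nova2*, *Elavl3* and *Nova1* were left with 10, 11, 15 and 21 allelic reads in the mutant pair. For these genes the standard errors of the log2 difference lay between 0.82 and 0.99. The count therefore cannot say whether either allele carried their decrease. Intervals below are 95% Wilson intervals, which cover counting error only.

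*Ptbp1* and *Ptbp2* had the most allelic reads, 4820 and 3366 over the 4 libraries. The JF1 share of *Ptbp1* was 0.593 and 0.531 in wild-type libraries and 0.586 and 0.534 in mutant ones, above 0.5 in each library. JF1 and B6 reads of this gene differed in both genotypes (log2 of JF1 over B6 0.33 and 0.34, edgeR adjusted p = 0.00352 and 0.000544), where 23.6% and 21.8% of all genes tested did. Without wild-type replicate 1 the wild-type difference did not pass (0.18, adjusted p = 0.429), nor did that in mutant cells without *Zfp57*-/- replicate 1 (0.20, adjusted p = 0.211), and DESeq2 called it in neither genotype. The difference between the genotypes was 0.02 (standard error 0.12). *Ptbp2* stood at 0.516 and 0.487 in wild-type and 0.473 and 0.458 in mutant cells, and *Rbfox2* at 0.472 and 0.522 against 0.460 and 0.452, with no difference past the threshold (adjusted p = 0.447 and 0.458).

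*Nova1* had the share farthest from 0.5. It was 0.442 and 0.523 in wild-type libraries, from 43 and 44 reads, and 0.077 and 0.250 in mutant ones, from 13 and 8 reads. Of the 21 reads in *Zfp57*-/- cells 3 were JF1, a share of 0.143 with an interval from 0.0498 to 0.346. In *Zfp57*-/- cells the alleles differed (log2 of JF1 over B6 -2.47, edgeR adjusted p = 0.0251), while DESeq2 did not call it and the difference between genotypes (-2.37, standard error 0.97) did not pass (adjusted p = 0.0985). With a library left out, the difference between genotypes ranged from -3.32 to -1.42, the values without *Zfp57*-/- replicate 2 and 1. It passed in the first of these (adjusted p = 0.0418) and not in the second (0.599) or without wild-type replicate 1 or 2 (0.275 and 0.445). The allele difference in *Zfp57*-/- cells itself did not pass without *Zfp57*-/- replicate 1 (-1.52, adjusted p = 0.434) or without either wild-type replicate (0.068 and 0.0669). The median JF1 share of the 360 genes measured on chromosome 12 was 0.507 in wild-type libraries, against 0.492 in mutant libraries.

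The members with the largest decreases had few allelic reads in the mutant libraries. *Srrm4* had 343 allelic reads in the wild-type pair of libraries and 10 in the mutant pair, *Elavl3* 247 and 15, *Nova2* 146 and 11, and *Elavl4* 352 and 37. The pooled JF1 share of *Srrm4* in *Zfp57*-/- cells was 0.7 with an interval from 0.397 to 0.892, against 0.528 in wild-type cells. *Elavl2* went from 0.522 to 0.629, with intervals from 0.449 to 0.595 and from 0.505 to 0.738. Neither difference between the genotypes passed the threshold in edgeR (adjusted p = 0.641 for *Srrm4* and 0.555 for *Elavl2*).

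**Figure D5:**
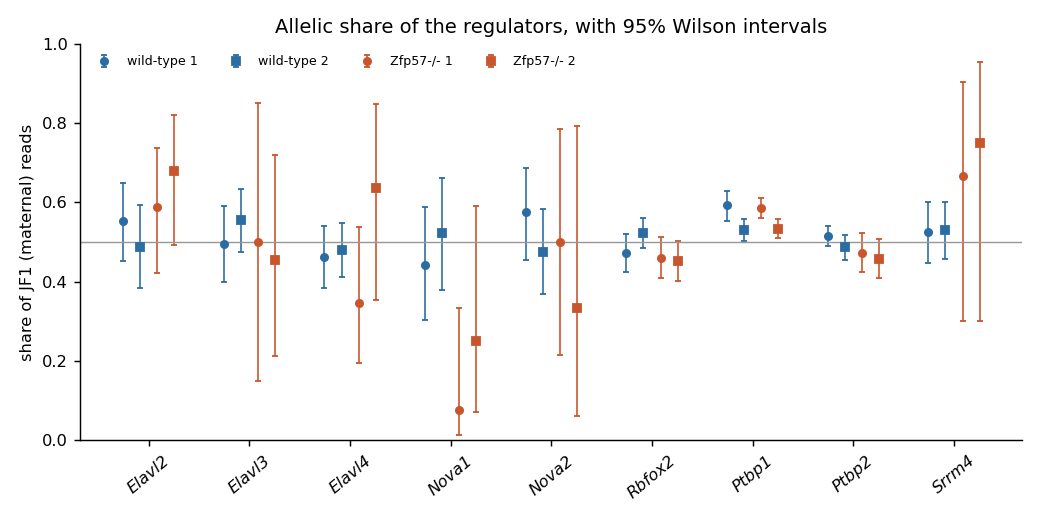
Share of JF1 reads (y axis) of the 9 members with allelic reads in each library (blue wild-type, orange *Zfp57*-/-), with 95% Wilson intervals as bars and a line at 0.5. *Nova1* lies at 0.077 and 0.250 in the *Zfp57*-/- libraries, *Ptbp1* lies between 0.531 and 0.593 in all 4, and the bars of *Srrm4*, *Nova2* and *Elavl3* are wide in the *Zfp57*-/- libraries.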

How the data were processed

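Ribosome-depleted RNA of 2 wild-type and 2 *Zfp57*-/- JB1 cultures was sequenced as stranded read pairs. The authors used Trimmomatic 0.36 for trimming and STAR 2.5.4a for alignment to GRCm38, and assigned fragments to GENCODE genes with featureCounts (Subread 1.6.0), as the submitters' processing notes and the study's methods state. The deposited values are raw counts per gene, in a bulk table of 55602 genes and in a table split by SNPsplit into JF1 and B6 counts, neither normalized. Strand was used in counting. All sample columns were used. Symbols were matched by gene identifier for 54721 genes.

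The bulk counts were compared with edgeR 4.0.16 in R 4.3.3 (TMM, robust quasi-likelihood test, genotype only) over genes with more than 8 counts in the 4 libraries, with Benjamini-Hochberg adjustment over all genes tested and a threshold of 0.05. The p-values measure the spread between these libraries. Normalized counts and RPKM use the TMM library sizes. Alleles were compared in an edgeR fit of the 8 JF1 and B6 columns, in which each library had its own term and each genotype its own allele effect, for autosomal genes with at least 10 allelic counts in each wild-type library. Coordinates are those of the deposited tables (GRCm38). The members and lists were chosen with earlier results of these data known. All members are named, from the RNA-binding, splicing and switch lists the genes past the threshold and some relatives and partners that did not pass, and of marker lists mainly the first 3 genes. GGCCGC was added to the motif search after the data were seen. Alternatives were DESeq2 1.42.0, its size factors, upper-quartile and *Actb* scaling, other filters, a replicate block and each library left out. Scripts were tested on simulated data. Sequences come from RefSeq and GENCODE. Exon inclusion and ZFP57 binding were not analysed here, and some genes first listed around the switch are not reported here.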

Additional observations from a re-analysis of the deposited data

How the results depend on the processing

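The 8 members that fell kept their direction and their side of the threshold under all 11 alternatives each, with the count of lower members at 8 to 9 when a library was left out. The count of higher members, 0, became 1 (*Ptbp1*) in DESeq2, with upper-quartile scaling, without a filter and with the replicate block, and ranged from 0 to 1 with a library left out. With *Actb* as the scale, 0 related RNA-binding proteins and 0 general splicing factors were higher, and 486 of all genes were higher against 2607, with 2994 lower against 2915. *Mbnl2* reversed there, to -0.14. With a library left out, the related genes ranged from 1 to 5 higher, the general factors from 0 to 15 higher and 0 to 3 lower, and all genes from 1280 to 5103 higher and 1551 to 4844 lower, the lone library of a genotype then being taken to vary like the others. The cause was not tested. The log2 ratio of *Ptbp2* to *Ptbp1* ranged from -3.05 to -1.73, the values without wild-type replicate 2 and 1.

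In the allele contrasts, DESeq2 called 0 members in wild-type and 0 in *Zfp57*-/- cells. With at least 10 allelic counts in every library, 1 member was called in *Zfp57*-/- cells, against 2 in the main fit. *Nova1*, called in the main fit, was not tested under that filter, as it had 8 reads in *Zfp57*-/- replicate 2. With a library left out, members called ranged from 0 to 1 in the genotype contrast, 0 to 1 in wild-type cells and 0 to 2 in *Zfp57*-/- cells. The allele change of *Ptbp1*, 0.02, had the opposite sign in DESeq2 (-0.000104) and with a replicate-by-allele block (-0.00767), and ranged from -0.20 to 0.17 with a library left out. That of *Elavl4* ranged from -0.74 to 0.95.

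Replicate numbers are shared between genotypes, but nothing in the labels ties same-numbered libraries. Their deviations from the group means had a correlation of 0.134 across 11749 genes. The replicate block gave 1 higher and 8 lower members (*Ptbp1* at 0.68, adjusted p = 0.0112) and 3489 higher and 3495 lower genes, and the ratio of *Ptbp2* to *Ptbp1* within pairs differed by -2.99 and -1.79.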
